A study of Mus musculus with 35 samples.

Results

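Lipg, Fmo1, Anpep, Spib and Stk32b are 5 protein-coding genes whose RNA was among the largest decreases in mouse embryonic fibroblasts after adenoviral Cre removed Nelfb. They were chosen from the measured values themselves, as the rows with the largest fold decreases after Ad-Cre in the count files, and they are 5 of the 24421 genes listed. RNA-seq counts came from 35 libraries derived from immortalized MEFs with 1 floxed and 1 null allele of Nelfb, the gene for the B subunit of the negative elongation factor NELF. Cre removes the floxed allele, so the Ad-Cre populations and the clones are meant to lack endogenous Nelfb. In 20 of the libraries, uncloned, drug-selected populations stably carried a vector without insert (EV) or a construct of mouse NELFB with a C-terminal flag tag, as wild type (WT), MT194, MT486 or a double mutant (DMT), and were collected 7 days after adenovirus with Cre (Ad-Cre) or with GFP as control (Ad-GFP), with 2 replicates per group. The other 15 came from single clones isolated after Ad-Cre, each library 1 clone and 3 for each of 5 labels, namely Δ-C60, WT(N48), MT486, MT194 and WT. MT194 and MT486 are alanine substitutions, MT194 with loss of binding to NELFA and NELFC and MT486 with loss of binding to NELFE by the study's account, the label of DMT names both changes, and Δ-C60 lacks the C-terminal end. The labels place WT(N48) and Δ-C60 in a pBabe vector and the other constructs in pLenti, where by the methods a CMV promoter drove them. The methods name Δ-C60 among the constructs brought in by lentivirus, so labels and methods differ for it. What N48 stands for was not given in the sources used here. Between 17969149 and 29080007 reads per library were assigned to genes in the populations and between 18413284 and 27816723 in the clones. Levels below are CPM, read counts brought to a common library size with the TMM factors of edgeR, computed apart for populations and clones.

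The proteins have separate textbook roles. Lipg encodes endothelial lipase, a secreted phospholipase that acts on high-density lipoprotein. Fmo1 encodes a flavin-containing monooxygenase, an enzyme of the endoplasmic reticulum that adds oxygen to nitrogen- and sulfur-containing compounds. Anpep encodes aminopeptidase N, also called CD13, a membrane enzyme that removes amino acids from the N-terminal end of peptides. Spib encodes an ETS-family transcription factor best known from B cells and plasmacytoid dendritic cells, and Stk32b encodes a serine/threonine kinase of the YANK group whose function is little described. NELF holds RNA polymerase II in a pause shortly after initiation, and its subunits depend on each other for stability.

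Nelfb itself was read first as a check of the labels. In EV populations Nelfb had 46.1 and 39.5 CPM with Ad-GFP and 7.97 and 5.46 CPM with Ad-Cre. With Ad-Cre it had 75.9 and 60.5 CPM in WT, 104 and 119 in MT194, 116 and 128 in MT486 and 169 and 208 in DMT populations, where reads of the construct and of the endogenous gene fall on 1 symbol. Nelfb RNA was thus low only in EV-Cre among the Ad-Cre populations, and in DMT-Cre it was 2.76-fold higher than in WT-Cre (log2 fold change 1.47, SE 0.20, edgeR adjusted p = 0.00240). In the clones, the libraries labelled WT 1 and WT 3 had 10.3 and 15.5 CPM of Nelfb, closer to EV-Cre than to the library labelled WT 2 at 109 CPM, which goes against their label. Several tests and correlations that use the WT clones are given below with and without these 2 libraries, and the others with them only.

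The loss with the empty vector is taken as the contrast behind the choice of the genes and is given as a description with no test. Lipg had 17.6 and 27.4 CPM in the EV-GFP replicates and 0.856 and 0.471 CPM in EV-Cre, a log2 fold change of −5.06 (SE 0.48), and the share left was 4.88% in replicate 1 and 1.72% in replicate 2. Fmo1 had 21.8 and 18.3 CPM with Ad-GFP and 1.53 and 1.13 CPM with Ad-Cre, a log2 fold change of −3.90 (SE 0.24). Anpep had 44.4 and 45.9 CPM against 2.97 and 3.63 CPM, a log2 fold change of −3.77 (SE 0.45). These 3 enzyme genes were low in both Ad-Cre libraries and high in both Ad-GFP libraries, with no overlap. For 23.9% of all genes tested both EV-Cre libraries lay below both EV-GFP libraries. Spib, the transcription factor gene, had 8.85 and 4.34 CPM against 0.676 and 0.377 CPM, a log2 fold change of −3.63 (SE 0.53). Stk32b, the kinase gene, had 13.7 and 9.22 CPM against 0.901 and 0.659 CPM, a log2 fold change of −3.86 (SE 0.43). Ad-Cre levels rested on few reads for 3 of the genes, 19 and 10 for Lipg, 15 and 8 for Spib and 20 and 14 for Stk32b, so counting error alone is large there and the ranks of these genes are uncertain. Spib was also the least even between the Ad-GFP replicates.

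Over all 13805 genes tested, 3.24% were called lower with Ad-Cre in EV populations, where called means an edgeR adjusted p under 0.05 and a log2 fold change beyond 1 in size. Among the 340 called decreases with a mean of at least 50 reads and replicates that do not overlap, Lipg ranked 1, Fmo1 3, Stk32b 4, Anpep 5 and Spib 7. The lowest member by rank, Spib at −3.63, lay close to Insig1 at −3.57 and Mvd at −3.54 on the log2 scale, which ranked 9 and 10 and are genes of cholesterol synthesis or its control. Idi1 at −4.11 and Fdps at −3.69, of the same pathway, ranked 2 and 6 and are not members. Because RNA came from whole populations, fewer cells with a transcript and less of it per cell cannot be told apart.

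By the GENCODE annotation of GRCm38, the sequence behind mm10, the 5 genes lie on 4 chromosomes and all on the minus strand. Lipg lies at chr18:74939322-74961263, Fmo1 at chr1:162829561-162866610, Anpep at chr7:79821803-79861059, Spib at chr7:44525993-44532071 and Stk32b at chr5:37446825-37717171. No other annotated gene shares exon bases with any of them. The nearest tested gene on each side was looked at for all 5, and 9 of these 10 neighbours were not called with Ad-Cre in EV populations. The exception was Cytl1, a gene for a small secreted cytokine-like protein that starts 18348 bases beyond Stk32b on the opposite strand. Its log2 fold change was −3.70 in EV (SE 0.88, edgeR adjusted p = 0.0146), −3.70 in MT194 (SE 0.88, 0.0308) and −2.53 in DMT (SE 0.64, 0.0239), and it was called lower in all of them. In MT486 (−2.39, SE 0.73, edgeR adjusted p = 0.112) and WT (−2.43, SE 0.65, 0.397) it was not called. Mybpc2, 1337 bases from Spib and a gene for a muscle myosin-binding protein, was called lower in DMT alone (−1.48, SE 0.42, edgeR adjusted p = 0.0411), and whether its change differed between constructs was not tested.

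Per kilobase of annotated exon, Anpep was the most abundant of the 5 in EV-GFP cells, with a mean level of 10.9 CPM per kb. Lipg followed with 4.77, Stk32b with 3.32, Fmo1 with 3.18 and Spib with 2.30 CPM per kb. In EV-Cre cells Anpep was still first at 0.798 CPM per kb, and Lipg, first among the 5 in the size of its decrease, was lowest at 0.141.

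Promoters are shown because the 5 genes fell together in populations. RefSeq's windows for GRCm38.p6 are printed for 3 of the 5 genes, Anpep, Spib and Stk32b, as the 250 bases before the annotated start, read along the gene. Capitals mark matches, on either strand, to 6 short motifs that were searched: the TATA box (TATAAA), the CCAAT box (CCAAT), the GC box (GGGCGG), the E-box (CACGTG), the AP-1 site (TGACTCA) and the PU box (GAGGAA), a site of the SPI1 and SPIB group of ETS factors. The shorter GGAA shared by ETS-factor sites was not searched. Motif letters may overlap, and a match is a description of the letters and not a bound site.
Anpep, chr7:79848211-79848460, minus strand: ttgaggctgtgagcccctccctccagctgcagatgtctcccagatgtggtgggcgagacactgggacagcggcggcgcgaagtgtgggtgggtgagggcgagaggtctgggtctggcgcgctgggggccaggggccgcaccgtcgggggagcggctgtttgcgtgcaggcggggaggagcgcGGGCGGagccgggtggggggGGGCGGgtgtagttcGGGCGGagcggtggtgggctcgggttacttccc
Spib, chr7:44532072-44532321, minus strand: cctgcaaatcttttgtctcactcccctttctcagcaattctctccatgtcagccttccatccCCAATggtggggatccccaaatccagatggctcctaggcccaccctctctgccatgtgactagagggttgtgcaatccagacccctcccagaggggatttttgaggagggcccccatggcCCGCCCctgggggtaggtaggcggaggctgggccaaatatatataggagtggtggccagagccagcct
Stk32b, chr5:37717154-37717403, minus strand: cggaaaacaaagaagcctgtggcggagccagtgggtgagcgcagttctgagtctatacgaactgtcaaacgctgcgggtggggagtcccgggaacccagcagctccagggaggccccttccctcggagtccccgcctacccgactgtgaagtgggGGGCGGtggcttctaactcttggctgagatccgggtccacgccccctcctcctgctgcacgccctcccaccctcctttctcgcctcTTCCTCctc
GGGCGG stood in all 3 windows, 3 times in Anpep and once, in 1 direction or the other, in Spib and Stk32b, while 33.0% of 32536 distinct promoter windows of this length hold it. CCAAT stood once in Spib (33.8% of windows hold it) and GAGGAA once in Stk32b (23.4%). TATAAA (12.3%), CACGTG (6.04%) and TGACTCA (4.45%) were not in these windows. Only these exact letters were searched, so other forms of a motif, such as the run tatatata in the Spib window, were not counted. The GC content was 72.8% for Anpep, 58.0% for Spib and 64.4% for Stk32b against a median of 52.4% over all windows. For Anpep the GENCODE gene reaches further upstream than the RefSeq start, so this window belongs to the downstream start and lies within the gene but in no annotated exon. The Spib window holds no exon bases either, and that of Stk32b holds 18 bases of a GENCODE exon.

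Wild-type NELFB kept a large part of each gene's RNA after Ad-Cre. Lipg had 18.7 and 24.0 CPM in WT-GFP and 7.90 and 11.9 CPM in WT-Cre. Fmo1 had 26.1 and 30.01 CPM and 14.2 and 14.2 CPM, and Anpep 45.2 and 61.9 CPM and 16.3 and 20.3 CPM. Spib had 9.16 and 7.70 CPM and 3.64 and 2.81 CPM, and Stk32b 14.2 and 13.4 CPM and 7.86 and 4.63 CPM. Both WT-Cre libraries lay below both WT-GFP libraries for every member, as for 19.4% of all genes tested. The mean after Ad-Cre was 50.6% of the Ad-GFP mean for Fmo1, 46.4% for Lipg, 45.2% for Stk32b, 38.3% for Spib and 34.2% for Anpep. In EV the same shares were between 2.95% for Lipg and 7.98% for Spib.

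The remaining decrease in WT, a contrast that shares no library with the one behind the choice, was tested for all 5. The log2 fold changes were −1.55 (SE 0.40) for Anpep, −1.38 (SE 0.43) for Spib, −1.14 (SE 0.35) for Stk32b, −1.11 (SE 0.37) for Lipg and −0.98 (SE 0.20) for Fmo1. With edgeR's quasi-likelihood test 0 of 5 were called lower (adjusted p between 0.175 and 0.571) and 0% of all genes were called lower. All 5 nevertheless had an unadjusted p under 0.05, as had 859 of all 13805 genes tested. DESeq2 called 1 of 5, Anpep (adjusted p = 0.0322), beside 0.0980% of all genes called lower by it. With the replicate number as a block, which pairs the 2 experiments, edgeR called 4 of 5: Stk32b (adjusted p = 0.000949), Spib (0.00255), Anpep (0.00688) and Lipg (0.0414), beside 0.485% of all genes called lower under the block. Fmo1 had an adjusted p of 0.00255 under the block and stayed out of the calls by its size, −0.99. In the edgeR fit without the block, the median log2 fold change of all genes tested was −0.01 in WT, and the 5 genes stood below it there.

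**Figure D1:**
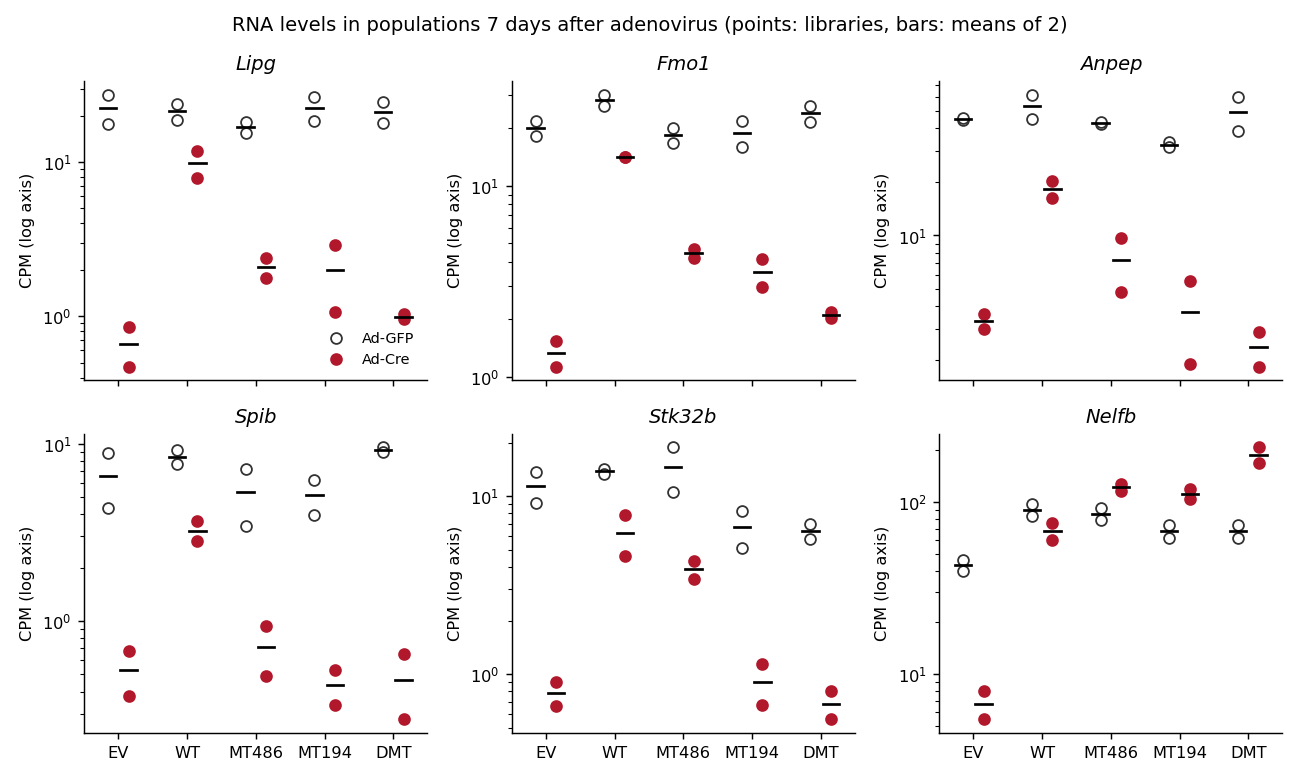
CPM (log axis) of the 5 genes and of Nelfb in each population library, by construct, with open points for Ad-GFP, filled points for Ad-Cre and bars for the means of 2 replicates. For all 5 genes the WT-Cre points are the highest of the Ad-Cre points and lie below the WT-GFP points, while Nelfb is low in EV-Cre alone.

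With MT486, whose binding to NELFE is lost, the shares left were smaller than with WT by the means. The difference in Cre effect from WT (given below) was tested only for Fmo1 and Stk32b, and neither was called. The size of the MT486 decrease itself decided which members were tested, so nothing follows from this for the others. Lipg had 15.5 and 18.2 CPM with Ad-GFP and 2.37 and 1.77 CPM with Ad-Cre, and Fmo1 20.1 and 16.7 CPM and 4.21 and 4.66 CPM. Anpep had 42.5 and 43.2 CPM and 4.83 and 9.71 CPM, and Spib 7.21 and 3.42 CPM and 0.940 and 0.488 CPM. Stk32b had 18.8 and 10.5 CPM and 4.34 and 3.42 CPM. The Ad-Cre libraries were below the Ad-GFP libraries for every member, as for 17.5% of all genes tested, and the share left was highest for Stk32b (26.4%) and Fmo1 (24.1%) and lowest for Lipg (12.3%). Spib kept 13.4% and Anpep 17.0%. Lipg, Spib and Anpep ranked 1, 2 and 4 among the called decreases of MT486, counted as in EV, within the ranks that the members hold in EV (1 to 7), and by that limit they carry no test. Fmo1 and Stk32b, at ranks 12 and 19, were both called lower, with log2 fold changes of −2.05 (SE 0.21) for Fmo1 (edgeR adjusted p = 0.000610) and −1.92 (SE 0.36) for Stk32b (0.0139), beside 0.724% of all genes. The call of Stk32b was lost without MT486-Cre replicate 1 (edgeR adjusted p = 0.0867) or 2 (0.130) or MT486-GFP replicate 1 (0.132). When the 4 MT486 libraries were fitted on their own, 0 of the 2 and 0.0152% of all genes were called lower by edgeR.

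MT194, whose binding to NELFA and NELFC is lost, left smaller shares than MT486 for all 5 genes by the means, and the difference in Cre effect between MT194 and MT486 was not tested. Lipg had 18.4 and 26.6 CPM with Ad-GFP and 2.91 and 1.06 CPM with Ad-Cre, and Fmo1 21.8 and 16.1 CPM and 4.13 and 2.94 CPM. Anpep had 33.5 and 31.4 CPM and 1.89 and 5.54 CPM, and Spib 6.25 and 3.98 CPM and 0.530 and 0.337 CPM. Stk32b had 8.26 and 5.12 CPM and 1.14 and 0.674 CPM. No Ad-Cre library reached an Ad-GFP library, as for 18.0% of all genes tested, but the replicates were uneven for the lipase and the peptidase genes in opposite directions. The share of Lipg left was 15.8% in replicate 1 and 3.97% in replicate 2 (15.3% and 9.73% with MT486), and that of Anpep 5.65% and 17.6%. From the means, the shares were 18.7% for Fmo1, 13.5% for Stk32b, 11.5% for Anpep, 8.81% for Lipg and 8.47% for Spib. By the same limit, Spib, Lipg, Anpep and Stk32b (ranks 1, 2, 3 and 6 among the decreases of MT194) have no test, and the log2 fold change of Stk32b was −2.86 (SE 0.41). Fmo1 at rank 13 was called lower (−2.41, SE 0.22, edgeR adjusted p = 0.000130), beside 1.29% of all genes. With the 4 MT194 libraries fitted on their own, edgeR called neither Fmo1 nor any other gene lower (0% of all genes).

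DMT, with both changes, left shares closest to those of the empty vector for 4 of the 5 genes, and for Spib those of MT194 were closer. Lipg had 18.04 and 24.4 CPM with Ad-GFP and 1.03 and 0.957 CPM with Ad-Cre, and Fmo1 21.6 and 26.2 CPM and 2.18 and 2.03 CPM. Anpep had 38.7 and 59.7 CPM and 1.83 and 2.87 CPM, and Spib 9.51 and 8.93 CPM and 0.650 and 0.279 CPM. Stk32b had 7.02 and 5.72 CPM and 0.803 and 0.558 CPM. All 5 were lower in both Ad-Cre libraries than in both Ad-GFP libraries, as were 24.2% of all genes tested, although DMT-Cre held the most Nelfb RNA of the populations. The shares left were 4.69% for Lipg, 4.78% for Anpep, 5.04% for Spib, 8.80% for Fmo1 and 10.7% for Stk32b. Lipg, Anpep, Spib and Fmo1 (ranks 1, 2, 3 and 5 among the decreases of DMT) have no test, and the log2 fold change of Fmo1 was −3.50 (SE 0.23). Stk32b at rank 10 was called lower (−3.21, SE 0.42, edgeR adjusted p = 0.000493), beside 2.69% of all genes.

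**Figure D2:**
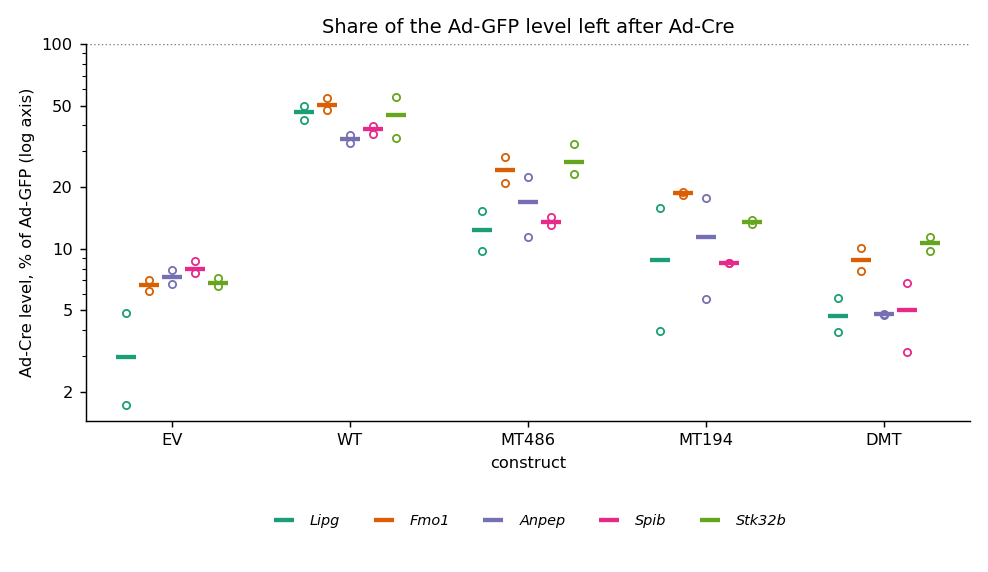
Level after Ad-Cre as a percent of the Ad-GFP level (log axis) for each gene and construct, with open circles for the replicates taken by number and bars for the ratio of means. The bars fall from WT (34.2% to 50.6%) over MT486 (12.3% to 26.4%) and MT194 (8.47% to 18.7%) to DMT (4.69% to 10.7%), and EV lies at 2.95% to 7.98%.

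On a log2 scale with EV-Cre set to 0% and WT-Cre to 100%, the quantity that the study calls gene rescue capability, Stk32b reached 76.9% with MT486 but 7.76% with MT194 and −6.54% with DMT. Anpep likewise reached 46.2% with MT486, 6.06% with MT194 and −19.8% with DMT. Lipg stood at 42.0% with MT486, 41.2% with MT194 and 14.8% with DMT. The single Ad-Cre libraries of MT486 and MT194 overlapped for Anpep and Lipg and lay apart for Stk32b, and whether the genes differ in this was not tested. For Stk32b the Ad-GFP levels of the constructs differed too (14.7 CPM in MT486, 6.69 in MT194 and 6.37 in DMT), and against its own Ad-GFP level it kept 26.4%, 13.5% and 10.7%, with EV at 6.80%. Fmo1 stood at 50.7%, 41.3% and 19.3% in the same order. Spib stood at 16.5%, −9.90% and −6.79%, the least return of the 5 with MT486. Taken by replicate number, Anpep with MT194 gave −25.9% and 24.3%, on both sides of EV-Cre, while the values of the other pairs of gene and construct kept 1 sign. A negative value means a level below EV-Cre, and these shares use EV-Cre libraries that served to choose the genes, so they carry no test.

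In the order of levels after Ad-Cre, WT-Cre was highest and MT486-Cre next for all 5 genes. The Fmo1 libraries kept the full order of WT, MT486, MT194, DMT and EV without overlap, though the gap from MT486 to MT194 was narrow. The Lipg libraries kept the same order of means, with MT486 and MT194 overlapping. For Anpep the libraries of MT486 and MT194 overlapped, those of MT194 enclosed EV-Cre, and DMT was lowest. For Spib the libraries of MT486, EV, DMT and MT194 all overlapped, and each rested on between 7 and 21 reads. For Stk32b the libraries of MT486 overlapped neither those of WT, with a narrow gap of 4.34 CPM against 4.63 CPM, nor those of MT194, and MT194, EV and DMT overlapped. How many of all genes keep such orders or gaps was not counted. EV-Cre served to choose the genes, so its low place is partly fixed by the choice.

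Against WT-Cre, members were tested where the construct's own decrease had not put them within those ranks. Fmo1 was called lower in MT194-Cre (−1.999, SE 0.21, edgeR adjusted p = 0.00134), beside 0.493% of all genes. In DMT-Cre Stk32b was called lower (−3.19, SE 0.42, edgeR adjusted p = 0.00210), beside 0.746% of all genes. In MT486-Cre, 1 of 2 was called lower beside 0.0869% of all genes: Fmo1 (−1.68, SE 0.21, edgeR adjusted p = 0.0107), while Stk32b (−0.69, SE 0.36, 0.760) was not. That Fmo1 call was lost when any 1 of the 4 libraries was left out (edgeR adjusted p between 0.115 and 0.173). With the libraries of the compared groups fitted on their own, Fmo1 was called neither in MT194-Cre nor in MT486-Cre, where 0% of all genes were called lower, and Stk32b was still called in DMT-Cre, beside 0.414% of all genes. The other differences from WT-Cre carry no test. In MT194-Cre they were −2.86 (SE 0.54) for Spib, −2.76 (SE 0.41) for Stk32b, −2.32 (SE 0.43) for Anpep and −2.28 (SE 0.41) for Lipg. In DMT-Cre they were −3.30 (SE 0.44) for Lipg, −2.96 (SE 0.44) for Anpep, −2.78 (SE 0.53) for Spib and −2.75 (SE 0.22) for Fmo1. In MT486-Cre they were −2.25 (SE 0.41) for Lipg, −2.17 (SE 0.51) for Spib and −1.33 (SE 0.41) for Anpep. These comparisons share the WT-Cre libraries. They set levels after Ad-Cre side by side, so differences between Ad-GFP levels are part of them, as for Stk32b with means of 13.8 CPM in WT-GFP and 6.37 in DMT-GFP.

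Between the mutants, Stk32b was 4.20-fold higher in MT486-Cre than in MT194-Cre, a log2 difference of 2.07 (SE 0.42) given with no test. With Ad-GFP, Stk32b already had means of 14.7 CPM in MT486 but 6.69 in MT194 and 6.37 in DMT. Its differences between Ad-Cre levels here therefore do not measure the Cre effect alone. Also without a test, Anpep differed by 0.99 (SE 0.43), Spib by 0.69 (SE 0.62) and Lipg by 0.03 (SE 0.43). Fmo1 differed by 0.32 (SE 0.22) and was not called (edgeR adjusted p close to 1), beside 0.0652% of all genes called in either direction. From MT486-Cre to DMT-Cre the log2 difference of Stk32b was −2.50 (SE 0.43), which was not called in edgeR (adjusted p = 0.0708, beside 0.0217% of all genes). It was called with the replicate block (edgeR adjusted p = 6.13e-05, beside 0.913% of all genes) and by DESeq2 (3.11e-05, beside 0.273%). Untested there were Anpep at −1.63 (SE 0.44), Fmo1 at −1.07 (SE 0.23), Lipg at −1.05 (SE 0.47) and Spib at −0.61 (SE 0.61). From MT194-Cre to DMT-Cre the differences, also untested, were −1.02 (SE 0.46) for Lipg, −0.75 (SE 0.23) for Fmo1 and −0.64 (SE 0.45) for Anpep. Those of Stk32b (−0.43, SE 0.48) and Spib (0.08, SE 0.65) were smaller than their SE.

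The difference between Cre effects was tested as an interaction, within the same limit. For Stk32b in DMT minus WT it was −2.07 (SE 0.55) on the log2 scale, not called in edgeR (adjusted p = 0.211, beside 0.0724% of all genes called lower). It was called with the block (edgeR adjusted p = 0.000491, beside 2.62% of all genes in either direction) and by DESeq2 (0.0319, beside 0.920%). For Fmo1 in MT194 minus WT it was −1.43 (SE 0.29), not called in edgeR (adjusted p = 0.297, beside 0% of all genes). It was called with the block (edgeR adjusted p = 0.00545, beside 0.927% of all genes in either direction) and by DESeq2 (0.00542, beside 0.283%). MT486 minus WT gave −1.07 (SE 0.29) for Fmo1 and −0.78 (SE 0.49) for Stk32b, and neither was called. There edgeR called 0% of all genes lower, the block 0.138% in either direction and DESeq2 0.0290%. An unadjusted p under 0.05 was held by 1 of 2 members and by 260 of all 13805 genes tested. The other members carry no test here. DMT minus WT gave −3.30 (SE 0.57) for Lipg, −2.91 (SE 0.68) for Spib, −2.84 (SE 0.58) for Anpep and −2.52 (SE 0.29) for Fmo1. MT194 minus WT gave −2.36 (SE 0.54) for Lipg, −2.14 (SE 0.69) for Spib, −1.72 (SE 0.54) for Stk32b and −1.60 (SE 0.57) for Anpep. For MT486 minus WT they were −1.91 (SE 0.54) for Lipg, −1.51 (SE 0.66) for Spib and −1.01 (SE 0.56) for Anpep.

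Levels before deletion are given without a test. With Ad-GFP, Stk32b had a mean of 14.7 ± 5.86 CPM in MT486 and 13.8 ± 0.597 in WT, but 6.69 ± 2.22 in MT194 and 6.37 ± 0.915 in DMT (SD, n = 2). Fmo1 ranged from 18.4 ± 2.39 CPM in MT486 to 28.1 ± 2.73 CPM in WT.

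In the stable clones the 5 genes did not share 1 pattern. Fmo1 was nearly absent from all 15 clones, with between 0 and 6 reads in a clone, 29 reads in total and 0 reads in 3 clones. The highest clone, WT 3, had 0.304 CPM, against 1.13 CPM in the lowest Ad-Cre population and 16.1 CPM in the lowest Ad-GFP population. The level of Fmo1 seen in WT-Cre populations, 14.2 CPM in both, was thus found in no clone. WT 1 and WT 3 are the libraries whose Nelfb level goes against their label, and without them WT 2 had 0 reads of Fmo1 and the WT(N48) clones 1, 1 and 2. At these counts Fmo1 missed the filter on low counts and was not tested among clones.

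Lipg differed between groups of clones. Its levels were 1.13, 0.871 and 1.47 CPM in the libraries labelled WT 1, 2 and 3, 0.685, 0.190 and 0.851 in MT194 and 4.30, 3.05 and 0.783 in MT486. In WT(N48) they were 2.99, 4.90 and 8.30 CPM and in Δ-C60 4.09, 3.41 and 10.7 CPM. All 6 pBabe clones were above all 6 clones labelled WT and MT194, and MT486 spread across both ranges, so vector and construct cannot be told apart here. How many of all genes separate in this way was not counted, so the separation is not read as particular to Lipg. With WT 1 and 3 set aside, WT 2 was also below all 6 pBabe clones. Δ-C60 3, with the most Lipg, also had the highest sum of endothelial markers of the 35 libraries (5.23 CPM, of which Kdr 4.39 CPM). In the edgeR test over the 5 groups, 1 of 4 members was called, Lipg (adjusted p = 0.0297), beside 11.6% of all genes. Without Δ-C60 3 the edgeR adjusted p was 0.0390. Without the libraries labelled WT 1 and 3 the adjusted p was 0.110, and it rose above 0.05 when WT 1, 2 or 3, MT194 1, MT486 2 or WT(N48) 2 was left out alone (0.0542 to 0.0764). MT194 clones were 9.33-fold lower than WT(N48) clones (−3.22, SE 0.73, edgeR adjusted p = 0.0285), 1 of 4 members beside 3.24% of all genes. That call was lost when MT194 1, 2 or 3 or WT(N48) 1 or 2 was left out (edgeR adjusted p between 0.0567 and 0.0986) or the 6 clones were fitted on their own, where 0.994% of all genes were called.

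Stk32b was highest in WT(N48). The levels were 13.3, 16.6 and 57.8 CPM there, 3.71, 0.664 and 2.74 in the clones carrying the WT label, 6.70, 4.36 and 3.45 in MT194, 2.65, 2.81 and 0.737 in MT486 and 10.95, 1.27 and 0.444 in Δ-C60. Each WT(N48) clone was above each of the other 12 clones, and WT(N48) 3 was above all 10 Ad-GFP populations. For how many of all genes 1 group of clones stands apart like this was not counted, so it is not read as particular to Stk32b. The 5-group test gave an edgeR adjusted p of 0.05002, just over the threshold, and DESeq2 called it (adjusted p = 0.000147), beside 29.3% of all genes. In edgeR it was called when any 1 Δ-C60 clone was left out (adjusted p between 0.0118 and 0.0371 from edgeR), and without the libraries labelled WT 1 and 3 it was 0.120. Against WT(N48), the log2 fold changes were −3.82 (SE 1.08) in MT486, −3.63 (SE 1.08) in WT, −2.79 (SE 1.03) in Δ-C60 and −2.59 (SE 1.02) in MT194, none called by edgeR (adjusted p between 0.0897 and 0.330).

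Anpep spread widely within groups of clones and was low in all 3 Δ-C60 clones. The levels were 7.06, 15.6 and 4.92 CPM in the libraries labelled WT, 11.1, 1.33 and 8.56 in MT194, 0.348, 0 and 11.3 in MT486 and 0.812, 3.70 and 14.2 in WT(N48) clones. The Δ-C60 clones had 1, 13 and 0 reads, or 0.0401, 0.487 and 0 CPM, where 0 reads do not exclude a level under 3 reads. MT486 2 also had 0 reads while MT486 3 had 246. The log2 fold change of Δ-C60 against WT was −5.60 (SE 1.89, edgeR adjusted p = 0.0814, 0.348 without the libraries labelled WT 1 and 3), and the 5-group test gave an edgeR adjusted p of 0.236. Spib was low throughout, from 0.0802 CPM in Δ-C60 1 to 1.35 CPM in WT(N48) 2, with 2 to 30 reads a clone and no difference that passed a test (5-group edgeR adjusted p = 0.908).

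Between single groups of clones, members other than Lipg in MT194 against WT(N48) were not called by edgeR. The count was 0 of 4 for MT486 against WT(N48) (0.272% of all genes called in either direction), for Δ-C60 against WT(N48) (0%), for WT against WT(N48) (1.47%), for MT194 against WT (1.47%), for MT486 against WT (0%) and for Δ-C60 against WT (5.38%). Without the libraries labelled WT 1 and 3, the comparisons with WT also held 0 of 4 members, and WT against WT(N48) gave −5.44 (edgeR adjusted p = 0.575) for Stk32b and −2.61 (0.617) for Lipg on the log2 scale. At an unadjusted p under 0.05 the 6 comparisons of all clones held 1, 2, 2, 0, 0 and 2 members. At that cut they held 1991, 1540, 2775, 2796, 1176 and 3587 of all 13223 genes tested. DESeq2 called 1, 0, 2, 0, 0 and 2 members, beside 2.92%, 1.12%, 5.13%, 3.83%, 0.843% and 8.89% of all genes in either direction. Lipg was 2.38 higher on the log2 scale in Δ-C60 than in WT (SE 0.70), with an edgeR adjusted p of 0.0511 that fell to 0.0325 without Δ-C60 2 and rose to 0.395 without the libraries labelled WT 1 and 3. MT486 clones 1 and 2 were closer to each other (chi-square of 5.06 per gene between their counts) than any other pair of clones of 1 group (32.4 to 349). They were counted as 2 samples, as labelled, and whether they are separate clones was not tested.

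Compared with the populations, all 15 clones lay below the lowest of the 10 Ad-GFP populations for Lipg, Fmo1, Anpep and Spib, and 10 of 15 did for Stk32b, while 8.37% of all genes tested in populations had all 15 clones below. The counts were the same when all 35 libraries were scaled together. Clones were isolated one by one after Ad-Cre, and deletion of the floxed allele, clonal origin and time in culture cannot be told apart in this contrast, which was not tested.

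**Figure D3:**
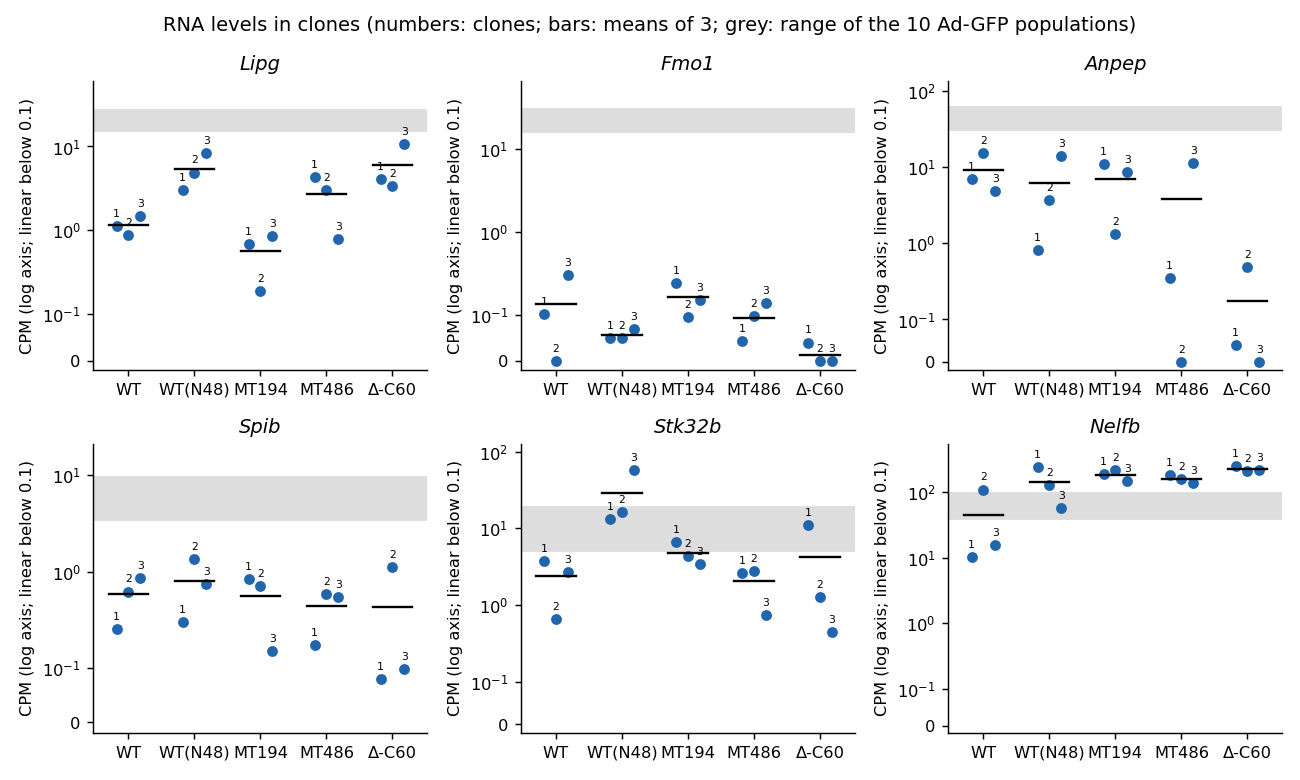
CPM of the 5 genes and of Nelfb in each clone (log axis, linear below 0.1), by construct, with bars for the means of 3 clones and a grey band for the range of the 10 Ad-GFP populations. Fmo1 stays at or below 0.304 CPM in all clones, Stk32b in WT(N48) reaches 57.8 CPM, and Nelfb is low in the libraries labelled WT 1 and 3.

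Relatives of each gene were taken from lists of family or pathway members. From lipases and lipoprotein handling, Scarb1, a receptor for high-density lipoprotein, had 188 ± 41.1 CPM in EV-GFP and 76.0 ± 14.4 in EV-Cre (SD, n = 2), a log2 fold change of −1.31 (SE 0.26, edgeR adjusted p = 0.00546). It was also called lower in MT194 and DMT, and not in MT486 or WT. Lpl and Lipc, the closest relatives of Lipg, had few reads, at most 26 over the 2 libraries of a population group for Lpl (in DMT-Cre) and 12 for Lipc, and Lipa, the lysosomal acid lipase, had 226 ± 57.8 CPM in EV-GFP and 215 ± 54.8 CPM in EV-Cre, a difference smaller than the spread between replicates.

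Of the 6 other FMO family genes only Fmo5 passed the filter. It had 2.55 ± 0.361 CPM in EV-GFP and 2.65 ± 0.376 in EV-Cre (log2 fold change 0.06, SE 0.31, edgeR adjusted p = 0.938), and was called in no construct. Among 9 other M1 aminopeptidases, the enzyme family of Anpep, Enpep (aminopeptidase A) was called lower in EV (−1.52, SE 0.36, edgeR adjusted p = 0.0155) and DMT, and 2010111I01Rik was called higher in EV (1.08, SE 0.22, edgeR adjusted p = 0.00676), beside 3.28% of all genes called higher. Among 14 other cell-surface peptidases, which include Enpep, 3 were called lower in EV and in DMT: Enpep, Dpp4, which cleaves dipeptides from peptide hormones, with −1.93 (SE 0.27, edgeR adjusted p = 0.000578) in EV, and Fap, its relative on activated fibroblasts, with −1.55 (SE 0.46, edgeR adjusted p = 0.0423) in EV. Dpp4 was also called in MT194. The median of this list was −0.83 in EV and −0.84 in DMT, beside 0.00 for all genes in both.

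Among 18 other tested ETS factors, 1 was called lower and 2 higher in EV. Elf3, an ETS factor of epithelia, changed by −2.18 (SE 0.19, edgeR adjusted p = 3.27e-05), and Etv4 and Etv5, which are induced by receptor kinase signaling, by 1.97 (SE 0.26, edgeR adjusted p = 0.000366) and 1.88 (SE 0.36, edgeR adjusted p = 0.00490). DMT gave the same 3 calls (2.61% of all genes called higher), MT194 those of Elf3 and Etv4 (1.20% called higher) and MT486 that of Etv4 (0.732% called higher). Spi1 and Spic, the closest relatives of Spib, had at most 3 reads over the 2 libraries of any population group. Of 4 other tested kinases of the STK32 and NDR groups none was called in any construct. Lats2 changed by 0.95 (SE 0.20, edgeR adjusted p = 0.00843) in EV, short of the size needed for a call. Stk32a and Stk32c had at most 8 reads over the 2 libraries of any population group, so Stk32b was the member of its family with reads to compare.

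Across the 20 populations, log2 CPM of the 5 genes correlated with each other, with Pearson's r between 0.895 for Lipg and Stk32b and 0.978 for Lipg and Fmo1. The points share the contrast of Ad-Cre with Ad-GFP, so these values say little beyond the decrease itself. Within the 10 Ad-GFP populations the 10 correlations lay between −0.59 for Lipg and Stk32b and 0.798 for Fmo1 and Spib. Within the 10 Ad-Cre populations, which share the differences between constructs and include the EV-Cre libraries of the choice, they lay between 0.721 for Anpep and Spib and 0.975 for Lipg and Fmo1. In the clones the vectors were taken apart, since the 6 pBabe clones had Insig1 at 6.40 to 7.39 log2 CPM and the 9 pLenti clones at 3.67 to 5.17. Correlations among the 4 members other than Fmo1, which had 6 reads at most in a clone, lay between −0.22 and 0.759 in pBabe and between −0.55 and 0.0932 in pLenti clones. These splits by vector and virus were chosen after the data were seen.

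Among 11484 genes with a mean of at least 50 reads, the 3 most like Lipg over the 20 populations were Insig1 (r = 0.995), which retains the sensor of sterols in the endoplasmic reticulum, Nsdhl (0.992) and Msmo1 (0.989), enzymes of late cholesterol synthesis. With Lipg, Insig1 had r = 0.832 within Ad-GFP and 0.984 within Ad-Cre populations, where the 2 experiments were not separated. Both sets are parts of the 20 populations by which the most alike genes were picked. High values within them, here and below, are thus partly fixed by that pick, while the clones had no part in it. Within clones Insig1 had 0.467 for pBabe and 0.760 for pLenti. Nsdhl had 0.925, 0.968, 0.668 and 0.627 in the same order, and Msmo1 0.950, 0.963, 0.767 and 0.920. Single clones moved these values: without MT194 2 the pLenti clones gave 0.495 for Insig1 and 0.232 for Nsdhl, and the pBabe clones gave 0.107 for Insig1 without WT(N48) 3 and 0.932 without Δ-C60 3. The 3 most like Fmo1 were Insig1 (0.983), Mvk (0.982), an early enzyme of the mevalonate pathway, and Nsdhl (0.981). Within Ad-Cre populations these were 0.979, 0.970 and 0.982, but within Ad-GFP populations 0.138, 0.242 and 0.0860, and Fmo1 had too few reads in the clones, 6 at most, for its correlations there to be read. For Anpep they were Angpt1, Mylk and Kdm5c (0.988, 0.986 and 0.985), for Spib Vps51, Ccdc148 and Rassf2 (0.985, 0.984 and 0.982) and for Stk32b Ube3b, Arnt and Camkk2 (0.972, 0.969 and 0.969). These 9 lay between 0.321 and 0.921 within Ad-GFP and between 0.939 and 0.987 within Ad-Cre populations, between −0.047 and 0.777 within pBabe clones and between −0.73 and 0.471 within pLenti clones. Without the libraries labelled WT 1 and 3, the 7 other pLenti clones gave r = 0.768 for Lipg with Insig1, 0.634 with Nsdhl and 0.918 with Msmo1, −0.72 to 0.567 for the 9 and −0.59 to 0.126 among the 4 members.

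**Figure D4:**
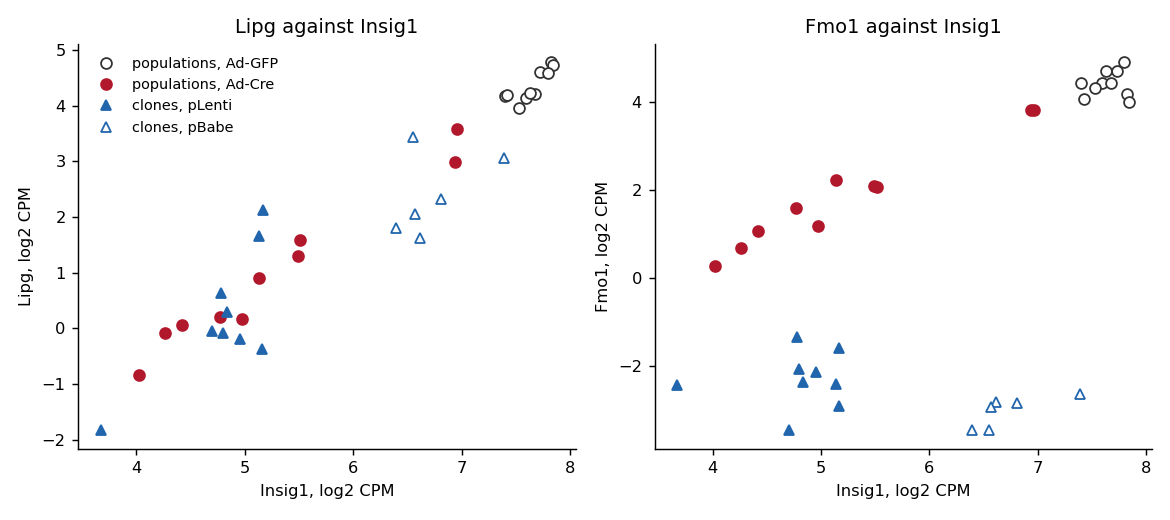
Log2 CPM of Lipg (left) and Fmo1 (right) against log2 CPM of Insig1 in 20 populations (circles, filled for Ad-Cre), 9 pLenti clones (filled triangles) and 6 pBabe clones (open triangles). The clones of the 2 vectors stand apart on the Insig1 axis, with r between Lipg and Insig1 of 0.467 in pBabe and 0.760 in pLenti clones, and Fmo1 is near its floor in all clones.

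Markers were read to check the cell type. The 8 fibroblast markers summed to between 8125 and 19815 CPM in the populations and between 4930 and 14492 CPM in the clones, led by Col1a1 in the populations and Vim in the clones, and none of the 8 was at 0 in all libraries. S100a4 was the 1 of 7 tested fibroblast markers called lower in EV (−1.47, SE 0.24, edgeR adjusted p = 0.00171), and the list's median there was −0.76. The 6 B cell markers summed to at most 1.32 CPM (led by Cd79a) and the 6 endothelial markers to at most 5.23 CPM (Δ-C60 3, led there by Kdr at 4.39 CPM, with Emcn at 0 in every clone) in any library. Spib and Lipg, genes known from these cell types, were therefore read in cells in which the defining markers of B cells and, Kdr in Δ-C60 3 and Vwf in WT(N48) 2 (2.80 CPM) aside, of endothelium were near 0. The 6 epithelial markers summed to at most 2.17 CPM and the 6 myeloid markers to at most 14.0 CPM, led by Cd68. Of 5 plasmacytoid dendritic cell markers, Bst2, which fibroblasts also express, held 72.2% to 94.6% of the sum of 125 to 640 CPM in populations (8.61 to 175 CPM in clones, where Il3ra led in 8 and Bst2 in 7 of 15, with Siglech at 0 in every clone), and it was called higher with Ad-Cre in EV (1.33, SE 0.32, edgeR adjusted p = 0.0152), MT194, MT486 and DMT. The 4 hepatocyte markers summed to 3.49 to 16.8 CPM in populations and 0 to 18.9 CPM in clones, led by Alb, with Serpina1a at 0 in all, and 0 of 1 tested was called. The part of Bst2, S100a4 and Kdr in the results was not tested.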

How the data were processed

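Poly(A) RNA was sequenced as stranded libraries of single reads. The authors aligned reads to mm10 with Bowtie2, skipped alignments of low mapping quality and deposited raw HTSeq read counts for 24421 gene symbols. Versions and the strand setting of the counting were not given in the sources used here. Reads without a feature (11.7% to 21.3% in populations, 9.14% to 12.0% in clones) and the other summary rows were left out. Counts were fitted with the quasi-likelihood test of edgeR 4.0.16 (filterByExpr, TMM, robust spread, 1 mean per group), apart for the 20 populations (13805 genes, all 5 members) and the 15 clones (13223 genes, 4 members). Calls needed a Benjamini-Hochberg adjusted p below 0.05 over all genes tested and, between 2 groups, a log2 fold change beyond 1 in size. SEs are those implied by the F statistic.

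The 5 genes, the gene lists and the tests were chosen with earlier results of these data known. For the 5 members, comparisons with EV carry no p, nor do comparisons of MT194, MT486 or DMT populations for a member whose rank among that construct's decreases is within those of the members in EV (1 to 7). This is stricter than first planned, and the limit was set after the data were seen. The test of Ad-GFP levels was left out for the same reason. Named genes are the 5 members, Nelfb, genes of family and marker lists, nearest tested neighbours, the next decreases by rank and the 3 genes most correlated with each member. P-values rest on a spread estimated over all groups of a fit and not on the compared groups alone, except where only those were fitted. That spread is between 2 experiments in populations and between 3 clones of a group in clones. The edgeR fit without a block did not pair the experiments, and the replicate block did. Replicate numbers paired the populations: deviations of libraries with the same number, from the 2 experiments of the methods, correlated in all 45 pairs of groups (r between 0.420 and 0.730, median 0.586). Alternatives were DESeq2 1.42.0, its size factors, no count filter, a replicate block, the compared groups alone, a threshold of 0.5 on the log2 fold change each library left out and, for clones, WT 1 and 3 left out. Fits were tested on simulated data. Some genes of these lists and ranks are not reported here.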

Additional observations from a re-analysis of the deposited data

How the results depend on the processing

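Counts of members called moved in these settings. DESeq2 called 1 member for the Cre effect in WT, 1 for DMT-Cre against MT486-Cre, 1 for the MT194 and 1 for the DMT interaction with WT. In clones it called 2 for MT194 (beside 6.67% of all genes), 1 for MT486 and 2 for WT, each against WT(N48). It also called 2 for Δ-C60 against WT and 2 over the 5 groups. With DESeq2's size factors in edgeR the 5-group test of clones gave 2, and without the count filter DMT-Cre against MT486-Cre gave 1. With the replicate block, populations gave 4 for the Cre effect in WT, 1 for DMT-Cre against MT486-Cre and 1 and 1 for the MT194 and DMT interactions with WT, and it changed no other member count there. In clones, whose numbers did not pair (same-number deviations correlated above 0.1 in 1 of 10 pairs of groups), the block gave 0 over the 5 groups, beside 4.93% of all genes. With the compared groups alone, 0 members were called for the Cre effects in MT194 and MT486, for MT194-Cre and MT486-Cre against WT-Cre and for MT194 against WT(N48) clones. In that setting 1 was called for WT against WT(N48) clones, beside 2.57% of all genes. Without the WT clones 1 and 3 the 5-group test called 0.

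Leaving out 1 library gave 1 to 2 members for the Cre effect in MT486, 0 for MT486-Cre against WT-Cre, 0 to 1 for MT194 against WT(N48) clones, 0 to 1 for Δ-C60 against WT clones and 0 to 2 over the 5 groups of clones. Where 1 library remained, it was assumed to vary like the others.

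Among log2 differences that were not called, signs turned when 1 library was left out for Anpep (−0.91 to 0.21) and Spib (−0.43 to 0.39) in MT194 against WT clones, Anpep (−0.36 to 1.64) and Spib (−0.87 to 0.10) in MT194 against WT(N48), Stk32b in MT486 against WT (−0.64 to 0.29), Anpep in MT486 against WT(N48) (−5.06 to 0.80), Anpep (−0.048 to 2.04) and Spib (−0.83 to 0.14) in WT against WT(N48), Spib (−2.63 to 0.090) and Stk32b (−1.44 to 1.37) in Δ-C60 against WT and Lipg in Δ-C60 against WT(N48) (−0.53 to 0.61). The block turned Spib in MT194 against WT clones to 0.13 and Stk32b in MT486 against WT clones to 0.016, which was 1.63 without the WT clones 1 and 3. The cause was not tested.

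Over all genes the number called depended on the model: for the Cre effect in WT it was 3 in edgeR, 120 with the block and 28 by DESeq2, for MT194 343, 744 and 490, for MT486 201, 586 and 364, and for DMT 733, 1215 and 882. Depth limits Spib after Ad-Cre and in clones, Anpep in Δ-C60 clones and Fmo1 in all clones.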
